A study of Mus musculus with 16 samples.

Results

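Glucose transporters and factors that bring GLUT4 vesicles to the cell surface were followed in mice that lack nuclear myosin 1 (NM1), a myosin made from the gene Myo1c. The same gene makes the cytoplasmic myosin MYO1C, which acts in the fusion of GLUT4 vesicles with the plasma membrane. The members were Slc2a1, Slc2a3, Slc2a4, Slc2a8, Slc2a12, Tbc1d4, Rala, Aspscr1 and Lnpep, and all probe sets annotated to them were taken. Of the 9 genes, 8 were measured, with 16 of the 45037 probe sets of the array. No probe set used here is annotated to Lnpep, so it has no value.

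RNA abundance was measured on Affymetrix expression arrays, 1 biotin-labelled RNA sample per array. The 6 groups were lungs of 3 NM1 KO and 3 NM1 WT mice, heart of the same 3 KO and 3 WT mice, and skin fibroblasts of 2 NM1 KO and 2 NM1 WT mice with other numbers. KO lungs and hearts came from mice 1602, 1603 and 1586 and WT lungs and hearts from mice 1592, 1624 and 1593. KO fibroblasts carry the numbers 1584 and 1550 and WT fibroblasts 1571 and 1623. The sources used here do not state strain, age, the removed part of Myo1c or the passage number of the fibroblasts. No treatment is named, so insulin was not varied on purpose, and transcript levels say nothing of where a transporter protein sits in the cell.

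Cells take up glucose by facilitated diffusion through transporters of the SLC2A family, the GLUT proteins. GLUT1 (Slc2a1) serves basal uptake in most cells, GLUT3 (Slc2a3) has a high affinity for glucose and is known from neurons, platelets and leukocytes, and GLUT4 (Slc2a4) is the insulin-responsive transporter of heart, skeletal muscle and adipocytes. GLUT8 (Slc2a8) is mostly held on membranes inside the cell, and GLUT12 (Slc2a12) is another transporter described in insulin-sensitive tissue. At rest, GLUT4 is held in storage vesicles with the aminopeptidase IRAP (Lnpep). The protein TUG (Aspscr1) tethers these vesicles, and the Rab GTPase-activating protein TBC1D4 holds them back until AKT phosphorylates it. RALA, a small GTPase on the vesicles, binds the exocyst, the complex that docks vesicles at the plasma membrane, and MYO1C as well.

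Of the members, 7 have a promoter window in the RefSeq table of build GRCm38.p6, and Slc2a3 and Slc2a4 have none there. Each window runs from 250 bases before a gene's start to 50 bases after it. The windows of Slc2a1, Tbc1d4 and Slc2a12 are printed because these genes differed most between tissues among the members with a window. Capitals mark exact matches, on either strand, to the hypoxia response core (letters ACGTG), the GC box (letters GGGCGG), the CCAAT box (those 5 letters) and the TATA box (letters TATAAA). A MEF2 motif was searched as well, also on both strands. No match in a printed window overlaps another.
Slc2a1, chr4:119108495-119108794, plus strand: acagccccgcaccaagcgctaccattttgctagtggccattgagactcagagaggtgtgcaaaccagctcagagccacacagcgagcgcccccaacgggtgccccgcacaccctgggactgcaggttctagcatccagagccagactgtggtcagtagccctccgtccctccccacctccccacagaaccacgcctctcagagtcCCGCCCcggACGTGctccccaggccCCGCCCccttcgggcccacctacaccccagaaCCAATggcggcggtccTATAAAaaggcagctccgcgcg
Tbc1d4, chr14:101609142-101609441, minus strand: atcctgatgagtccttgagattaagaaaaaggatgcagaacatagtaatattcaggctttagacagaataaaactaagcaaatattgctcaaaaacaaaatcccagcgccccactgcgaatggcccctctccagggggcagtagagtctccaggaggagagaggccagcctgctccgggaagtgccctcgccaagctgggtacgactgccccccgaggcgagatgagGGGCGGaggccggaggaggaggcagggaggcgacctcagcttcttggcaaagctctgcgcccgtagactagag
Slc2a12, chr10:22644761-22645060, plus strand: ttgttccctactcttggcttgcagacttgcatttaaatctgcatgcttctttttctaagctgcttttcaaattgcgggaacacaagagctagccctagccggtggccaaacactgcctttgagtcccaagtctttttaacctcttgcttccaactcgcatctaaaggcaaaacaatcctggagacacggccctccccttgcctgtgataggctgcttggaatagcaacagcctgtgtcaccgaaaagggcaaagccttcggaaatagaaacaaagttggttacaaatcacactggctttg

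The Slc2a1 window holds 1 match to the hypoxia response core, 2 GC boxes, 1 CCAAT box and 1 TATA box, with 18 CpG dinucleotides and 65.3% G and C. The Tbc1d4 window holds 1 GC box and 12 CpG, and the Slc2a12 window holds none of these motifs and 6 CpG. Among all 32851 windows of the table, 19.6% hold the hypoxia response core, 35.7% a GC box, 37.4% a CCAAT box, 13.6% a TATA box and 3.19% the MEF2 motif, and the median window has 7 CpG. No member's window holds the MEF2 motif. The other members' windows range widely, with 36 CpG for Rala, 30 for Lnpep and 14 for Slc2a8, and 2, 20 and 37 for the 3 starts listed for Aspscr1. A match is a description of letters and no measure of binding.

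All values are log2 signals as deposited, and array medians lay between 3.65 and 3.93. The median over every value of the 16 arrays was 3.79, and a probe set entered a comparison if its average in at least 1 of the tissues set side by side exceeded it. Differences were tested with limma over all kept probe sets, and a call needs an adjusted p under 0.05. Averaged over its 4 probe sets, Myo1c had 6.31 to 7.09 in KO lungs against 7.55 to 8.35 in WT lungs, 5.92 to 6.00 in KO heart against 6.60 to 6.83 in WT heart, and 6.24 to 6.26 in KO fibroblasts against 7.52 to 7.81 in WT fibroblasts. KO lay below WT in each tissue, although no single Myo1c probe set passed the test (the lowest adjusted p of limma was 0.0674 for lungs, 0.0825 for heart and 0.0816 for fibroblasts). Tissue labels fitted their markers: the surfactant gene Sftpc had 13.92 to 14.13 in lungs, the ventricular light chain Myl2 13.83 to 13.98 in heart and the collagen gene Col1a1 10.88 to 11.61 in fibroblasts. The array of KO heart 1602 stands apart, with an upper quartile of 5.63 against 6.17 to 6.31 in the other hearts.

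Of the 16 member probe sets, 12 lay above 3.79 on average in at least 1 tissue, and these cover all 8 genes. The other 4 stayed low in every tissue: 2 of Slc2a3, 1 of Slc2a12 and 1 of Aspscr1. They are not used further, and a low probe set does not show that a gene is silent where another probe set of it is higher. Levels of different probe sets are not compared with each other, since probes differ in brightness.

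**Figure D1:**
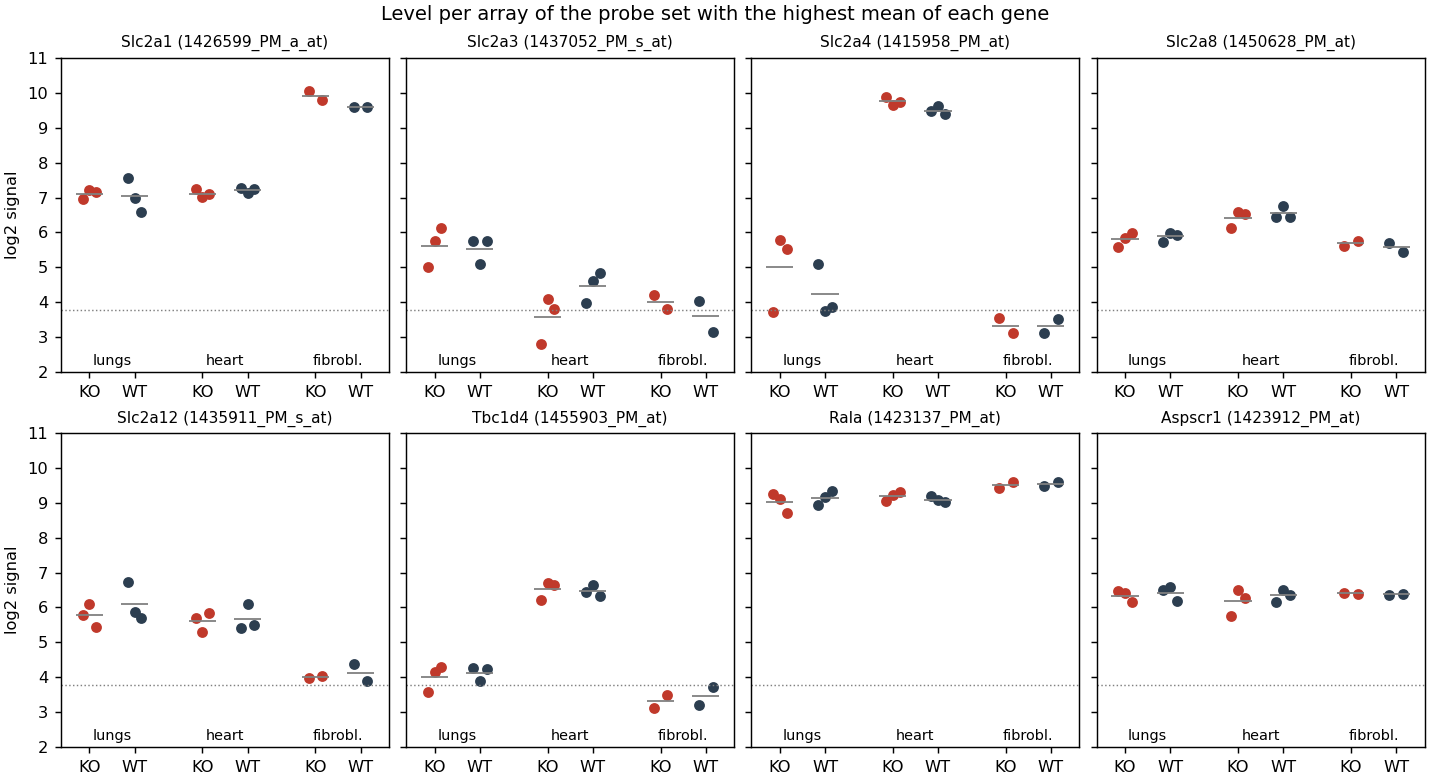
Log2 signal per array (vertical axis) of the probe set with the highest mean for each of the 8 measured genes, by genotype and tissue, with a grey bar at each group mean and a dotted line at 3.79, the median of all values. Slc2a4 and Tbc1d4 stand highest in heart, Slc2a1 in fibroblasts and Slc2a3 in lungs, while KO and WT points lie close together within most tissues.

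Between WT tissues, Slc2a4 and Tbc1d4 were highest in heart, Slc2a1 in fibroblasts and Slc2a3 in lungs, while Slc2a12 was lower in fibroblasts than in lungs and heart. Between WT lungs and WT heart 6 of 12 kept member probe sets passed, 2 higher and 4 lower in lungs, where 60.2% of all kept probe sets passed. Between WT lungs and WT fibroblasts 6 of 11 passed, 4 higher and 2 lower in lungs, against 60.1% of all. Between WT heart and WT fibroblasts 8 of 11 passed, 5 higher and 3 lower in heart, against 63.8% of all. These shares lie near those of the whole array, so they say nothing particular to glucose transport, and the results lie in which genes differed and by how much.

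Slc2a4, the insulin-responsive transporter, showed the widest differences of all members. Its probe set 1415958_PM_at had 3.71, 5.77 and 5.51 in KO lungs 1602, 1603 and 1586, and 5.09, 3.75 and 3.85 in WT lungs 1592, 1624 and 1593. In heart it had 9.90, 9.65 and 9.75 in KO 1602, 1603 and 1586, and 9.47, 9.61 and 9.40 in WT 1592, 1624 and 1593. In fibroblasts it had 3.53 and 3.10 in KO 1584 and 1550, and 3.13 and 3.52 in WT 1571 and 1623. Every heart lay far above every lung and fibroblast array, and lungs alone were spread widely within both genotypes. WT lungs lay below WT heart, with a log2 difference of -5.26 (SE 0.44, 38.4-fold, adjusted p of limma 2.0e-07), and WT heart above WT fibroblasts, with 6.17 (SE 0.50, 71.9-fold). The second probe set, 1415959_PM_at, gave 59.4-fold and 77.7-fold for the same differences. Since fibroblast signals, and those of some lungs, lie under 3.79, where the array compresses differences, these folds are on the array's own scale. WT lungs and WT fibroblasts differed by 0.90 (SE 0.50, adjusted p of limma 0.131), which did not pass.

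Tbc1d4, whose protein holds GLUT4 vesicles back, followed the same order over tissues. The 6 lungs spanned 3.59 to 4.31 in KO and 3.88 to 4.26 in WT. It had 6.22, 6.70 and 6.66 in KO heart and 6.45, 6.65 and 6.33 in WT heart, with mice in the order given above, and fibroblasts had 3.13 and 3.50 in KO and 3.21 and 3.71 in WT. No heart overlapped any lung, while lungs and fibroblasts lay close together. WT lungs were lower than WT heart, with a log2 difference of -2.35 (SE 0.21, 5.10-fold, adjusted p of limma 3.9e-07), and WT heart was 3.01 higher than WT fibroblasts (SE 0.24). Both WT fibroblast samples lie under 3.79 here as well, so no fold is given for that difference. WT lungs were also 0.67 higher than WT fibroblasts (SE 0.24, adjusted p of limma 0.0262). That call is lost without WT lungs 1592 (0.60, adjusted p 0.0733), WT lungs 1593 (0.61, adjusted p 0.0690) or WT fibroblasts 1571 (0.42, adjusted p 0.248).

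Slc2a1, the transporter of basal uptake, was highest in fibroblasts. Its probe set 1426599_PM_a_at had 6.97, 7.22 and 7.15 in KO lungs and 7.55, 6.98 and 6.59 in WT lungs, and 7.24, 7.005 and 7.10 in KO heart and 7.28, 7.14 and 7.24 in WT heart. In fibroblasts it had 10.05 and 9.80 in KO and 9.61 and 9.59 in WT. Fibroblasts stood apart from both organs with no overlap, and every heart lay within the range of the lungs. Against WT fibroblasts, WT lungs were lower by a log2 difference of -2.56 (SE 0.21, 5.90-fold, adjusted p of limma 2.07e-07) and WT heart by -2.38 (SE 0.21, 5.20-fold, adjusted p 2.97e-07), with the second probe set at 7.26-fold and 7.41-fold. WT lungs and WT heart differed by -0.18 (SE 0.19, 95% interval -0.58 to 0.22), which did not pass. Without WT lungs 1592 it did, at -0.44 (adjusted p of limma 0.0234). The fibroblasts had been taken from skin and the organs whole, so a cell type and its setting cannot be told apart here. In whole organs, fewer cells of a type and less RNA per cell cannot be told apart either.

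Slc2a3, the high-affinity transporter, was highest in lungs. Its probe set 1437052_PM_s_at had 4.99, 5.75 and 6.12 in KO lungs and 5.74, 5.10 and 5.76 in WT lungs. WT heart had 3.98, 4.60 and 4.84 and WT fibroblasts 4.05 and 3.15, all below every WT lung. WT lungs were 1.06 higher than WT heart (SE 0.38, adjusted p of limma 0.0256) and 1.93 higher than WT fibroblasts (SE 0.42, adjusted p 0.0013), and a second probe set, 1455898_PM_x_at, gave 0.99 and 1.53, both passing. For 1437052_PM_s_at the call against heart is lost without WT lungs 1592 (0.96, adjusted p of limma 0.0770), WT lungs 1593 (0.95, adjusted p 0.0802) or WT heart 1592 (0.81, adjusted p 0.113). WT heart and WT fibroblasts differed by 0.87 (SE 0.42, adjusted p of limma 0.0848), which did not pass. Without WT heart 1592 (1.12, adjusted p 0.0476) or WT fibroblasts 1571 (1.32, adjusted p 0.0445) it passed. Probe sets whose names end in s_at or x_at can also bind other transcripts, so a share of these signals may not be Slc2a3.

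Of the other transporters, Slc2a12 had 5.43 to 6.10 in KO lungs and 5.69 to 6.73 in WT lungs, 5.29 to 5.85 in KO heart and 5.42 to 6.11 in WT heart, and 3.99 and 4.02 in KO fibroblasts and 4.38 and 3.88 in WT fibroblasts. Every organ lay above every fibroblast sample. WT lungs were 1.97 higher (SE 0.31, 3.91-fold, adjusted p of limma 1.0e-04) and WT heart 1.55 higher (SE 0.31, 2.92-fold) than WT fibroblasts, while lungs and heart differed by 0.42 (95% interval -0.17 to 1.02), which did not pass. Slc2a8, the transporter of inner membranes, had 5.74, 5.99 and 5.92 in WT lungs, 6.44, 6.76 and 6.44 in WT heart and 5.70 and 5.44 in WT fibroblasts. WT lungs were lower than WT heart, at -0.66 (SE 0.16, adjusted p of limma 0.0023) and WT heart was 0.98 higher than WT fibroblasts (SE 0.17, adjusted p 0.00024). WT lungs and WT fibroblasts differed by 0.32 (SE 0.17), which did not pass.

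Of the trafficking genes, Rala had 8.72 to 9.60 on the 16 arrays with probe set 1423137_PM_at and 5.67 to 7.30 with probe set 1450870_PM_at, which spread more widely. Aspscr1 probe set 1423912_PM_at lay between 5.77 and 6.60. WT heart was lower than WT fibroblasts for Rala, at -0.43 (SE 0.17, adjusted p of limma 0.0336). That call is lost without WT heart 1624 (adjusted p 0.0673), WT heart 1593 (0.0855), WT fibroblasts 1571 (0.0722) or WT fibroblasts 1623 (0.159). Rala probe set 1450870_PM_at passed in no pair of WT tissues, and Aspscr1 passed in none either, with differences of 0.08, 0.05 and -0.03. The order of mean levels over WT tissues was thus heart, lungs, fibroblasts for Slc2a4, Tbc1d4 and Slc2a8, where the step between lungs and fibroblasts did not pass for Slc2a4 and Slc2a8. It was lungs, heart, fibroblasts for Slc2a3 and Slc2a12, where the step between heart and fibroblasts did not pass for Slc2a3, nor that between lungs and heart for Slc2a12.

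**Figure D2:**
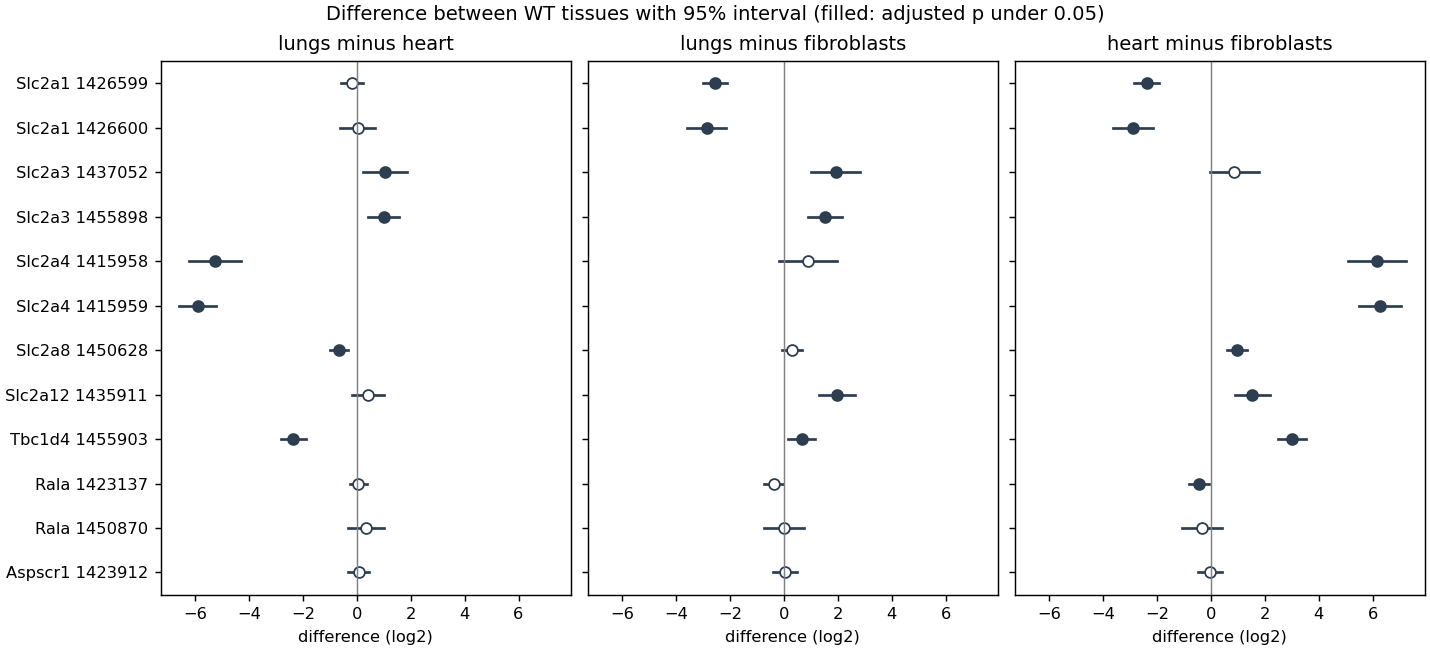
Difference in log2 signal between WT tissues (horizontal axis) with 95% intervals for each kept member probe set, filled where the adjusted p of limma is under 0.05. Slc2a4 reaches -5.89 for lungs minus heart and 6.28 for heart minus fibroblasts, Slc2a1 lies below -2.3 in both comparisons with fibroblasts, and Aspscr1 sits near 0 in all 3.

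The comparison the series was built for is KO against WT within a tissue, and no member passed it anywhere. In lungs 0 of 11 kept member probe sets passed limma (0 at an unadjusted p under 0.05, smallest adjusted p 0.726), where 0.0301% of all kept probe sets passed. In heart it was 0 of 11 (1 at an unadjusted p under 0.05, smallest adjusted p 0.249) against 0.127% of all, and in fibroblasts 0 of 8 probe sets of 6 genes (0 at an unadjusted p under 0.05) against 0.0549% of all. With lungs and heart averaged by mouse it was 0 of 12 (1 at an unadjusted p under 0.05, smallest adjusted p 0.339) against 0.00802% of all. With so few calls over the whole array, a count of 0 among 11 says little by itself. Member differences spanned -0.46 to 0.77 (lungs), -0.91 to 0.27 (heart) and -0.23 to 0.41 (fibroblasts). Their medians were -0.09, -0.10 and 0.02, beside -0.06, -0.16 and 0.02 over all kept probe sets.

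The test of whether KO minus WT differed between tissues passed for no member either. Limma passed 0 of 12 for lungs against heart (0 at an unadjusted p under 0.05) beside 0% of all kept probe sets, 0 of 11 for lungs against fibroblasts (0 unadjusted) beside 0.0197%, and 0 of 11 for heart against fibroblasts (1 unadjusted) beside 0.0203%. Groups that do not overlap were found for 0 of 11 member probe sets in lungs, 3 of 11 in heart and 1 of 8 in fibroblasts. Over all kept probe sets KO and WT did not overlap for 11.5% in lungs, 17.6% in heart and 32.5% in fibroblasts, so the members' counts lie near the background. The 4 probe sets are both of Slc2a4 in heart and 1426599_PM_a_at of Slc2a1 in fibroblasts, with KO above WT, and 1450870_PM_at of Rala in heart, with KO below WT.

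**Figure D3:**
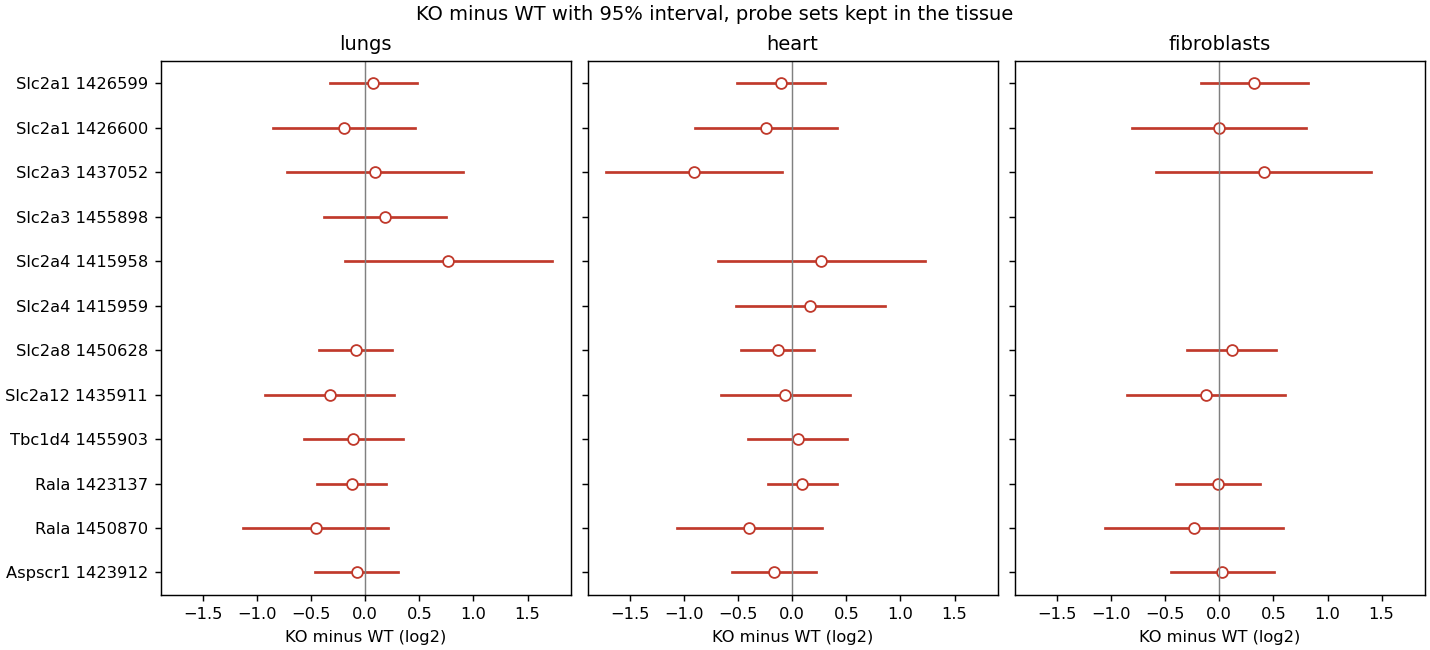
KO minus WT in log2 signal (horizontal axis) with 95% intervals for the member probe sets kept in each tissue, all open because none had an adjusted p under 0.05. In lungs, heart and fibroblasts 1 interval leaves out 0, that of Slc2a3 in heart (-1.72 to -0.10), and the interval of Slc2a4 in lungs (-0.19 to 1.72) is wide.

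In heart, where Slc2a4 was highest, 1415958_PM_at differed by 0.27 (SE 0.44, 95% interval -0.69 to 1.23), with all 3 KO hearts above all 3 WT hearts. The interval is wide because 1 spread is pooled over tissues: the SD of this probe set was 0.13 in KO heart and 0.11 in WT heart, and 1.12 in KO lungs and 0.75 in WT lungs (n = 3 each). In a limma fit on the 6 heart arrays alone the difference had an adjusted p of 0.524. That p is adjusted over all kept probe sets and does not give the width of the interval in that fit. The second probe set had 9.18, 9.19 and 9.37 in KO heart and 9.17, 9.15 and 8.90 in WT heart, a difference of 0.17 (SE 0.32), with a gap of about 0.01 between the lowest KO and the highest WT heart. Tbc1d4 in heart differed by 0.05 (95% interval -0.41 to 0.51) and Aspscr1 by -0.17 (95% interval -0.55 to 0.22).

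Slc2a3 had the lowest adjusted p of any member in heart. Its probe set 1437052_PM_s_at had 2.80, 4.09 and 3.80 in KO heart 1602, 1603 and 1586, and 3.98, 4.60 and 4.84 in WT heart 1592, 1624 and 1593. KO 1602 was lowest, and KO 1603 lay above WT 1592, so the groups overlapped. The KO heart mean, 3.57, lay under 3.79. The probe set 1455898_PM_x_at was too low in heart to be kept. It had 3.22 to 3.85 in KO heart and 3.34 to 4.19 in WT heart, so a lower level in KO rests on 1 probe set. For 1437052_PM_s_at the difference was -0.91 (SE 0.38, adjusted p of limma 0.249), and without KO heart 1602, the array that stands apart, it was -0.52 (adjusted p 0.704). No marker of the 14 cell type lists passed limma between KO and WT heart, but the means of some lists differed between hearts. The mean of 6 atrial muscle markers was 5.99, 10.29 and 6.47 in KO heart 1602, 1603 and 1586, and 10.41, 9.33 and 10.64 in WT heart 1592, 1624 and 1593, and the atrial light chain Myl7 had 4.08, 12.14 and 5.66 in KO and 12.44, 11.14 and 13.23 in WT. With the atrial mean as a term the Slc2a3 difference was -0.41 (adjusted p of limma 1.0), and with KO 1602 and KO 1586 left out it was -0.38. These 2 hearts are also the lowest for Slc2a3 and leave 1 KO heart, so a smaller difference follows from the choice. The low atrial means were all in KO hearts, and the part of atrial muscle in the Slc2a3 difference was not tested apart from genotype. Means of KO and WT hearts did not overlap for 3 of the 14 lists, each with KO below WT, where 17.6% of all kept probe sets did not overlap. A list mean averages several genes and the share counts single probe sets, so the units differ and the share is no measured background for list means. The mean of 3 erythroid markers was 7.05, 6.92 and 7.20 in KO heart and 8.91, 7.68 and 8.59 in WT heart, and that of 6 fibroblast markers 6.24, 6.69 and 6.49 in KO heart and 6.73, 6.85 and 7.35 in WT heart. The third was the mean of 4 platelet markers, 4.90, 5.25 and 5.37 in KO heart and 6.03, 5.85 and 5.50 in WT heart. Most of it came from Ppbp (-1.59), which also had 6.25 to 8.92 in the cultured fibroblasts, while Pf4 gave -0.41, Gp9 -0.32 and Itga2b -0.14. The mean of 5 mesothelium markers was 4.15, 6.60 and 4.07 in KO heart and 7.57, 5.66 and 5.86 in WT heart, and that of 5 neutrophil markers 4.51, 3.76 and 5.16 in KO heart and 4.40, 3.75 and 4.33 in WT heart. The 7 cardiomyocyte markers averaged 13.30 to 13.33 in KO heart and 13.28 to 13.31 in WT heart. Of the lung markers, Sftpc had 3.41, 5.46 and 6.22 in KO heart and 4.13, 4.29 and 3.91 in WT heart. The airway marker Scgb1a1 differed by 1.75 between KO and WT heart, and the alveolar type I marker Pdpn by -1.09. The part of the erythroid, fibroblast, platelet, mesothelium, neutrophil, airway and alveolar lists in the Slc2a3 difference was not tested.

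In lungs, Slc2a4 was the member with the largest difference, 0.77 for 1415958_PM_at (SE 0.44, 95% interval -0.19 to 1.72, adjusted p of limma 0.726). The second probe set had 2.87, 4.49 and 4.38 in KO lungs and 3.52, 3.00 and 3.03 in WT lungs. It differed by 0.73 (95% interval 0.044 to 1.42, unadjusted p of limma 0.0387) but lay too low to be kept, so it is not among the counts above, and without any filter its adjusted p of limma was 0.9997. Both probe sets were high in the same 3 lungs, KO 1603, KO 1586 and WT 1592, and low in the other 3, so the groups overlapped. Without KO lungs 1602 the difference was 1.41 (adjusted p of limma 0.102) and without WT lungs 1592 it was 1.20 (adjusted p 0.376), while without KO lungs 1603 it was 0.38. The second probe set, still not kept, gave 1.25 without KO lungs 1602 (unadjusted p of limma 7.65e-06). KO 1602 is the lowest KO lung for both probe sets, so larger differences and smaller p-values follow from leaving it out. With weights that count arrays far from their group less, 1415958_PM_at gave 1.41 (adjusted p of limma 0.0703).

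The same 3 lungs were highest in adipocyte transcripts. Adipocytes make Slc2a4, as heart muscle does. The mean of the 7 measured adipocyte markers was 3.72, 7.88 and 8.30 in KO lungs 1602, 1603 and 1586, and 6.57, 4.02 and 3.89 in WT lungs 1592, 1624 and 1593. Adiponectin (Adipoq), made by fat cells, had 2.73, 10.53 and 10.80 in KO lungs and 9.83, 3.99 and 3.45 in WT lungs. Ucp1, the uncoupling protein of brown fat, had 2.59, 8.02 and 9.43 in KO lungs and 3.87, 2.86 and 2.77 in WT lungs. With the adipocyte mean as a term in a fit on the 6 lungs, the Slc2a4 difference was -0.043 (SE 0.17, 95% interval -0.44 to 0.36, adjusted p of limma 0.975), and 0.17 for the second probe set. The list is not of fat alone, since its genes Fabp4 and Cidea had 12.23 to 12.60 and 8.58 to 9.13 in hearts. Its gene Pnpla2 stayed at 2.57 to 3.04 in lungs.

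Heart muscle transcripts varied alongside. The mean of 7 cardiomyocyte markers was 4.63, 8.41 and 7.63 in KO lungs and 8.10, 6.73 and 6.56 in WT lungs, and that of 6 atrial markers 5.002, 7.87 and 7.21 in KO and 7.67, 5.95 and 5.80 in WT. Myl7 had 8.02, 12.04 and 11.37 in KO lungs and 11.68, 10.15 and 9.84 in WT lungs, while the ventricular gene Myl2 stayed at 3.19 to 4.14 in all 6. Of the other atrial markers, Myl4 had 6.24 to 10.98 and Nppa 2.94 to 10.66 over the 6 lungs. Dkk3 had only 6.71 to 7.52, and Nppb (2.86 to 3.45) and Bmp10 (2.66 to 2.86) stayed low. The mean of 8 skeletal muscle markers lay between 3.19 and 3.70. The parts of adipocytes and of atrial-type muscle in the Slc2a4 values of lungs cannot be told apart, as both lists are high in the same 3 lungs. Whether either accounts for these values was not tested.

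**Figure D4:**
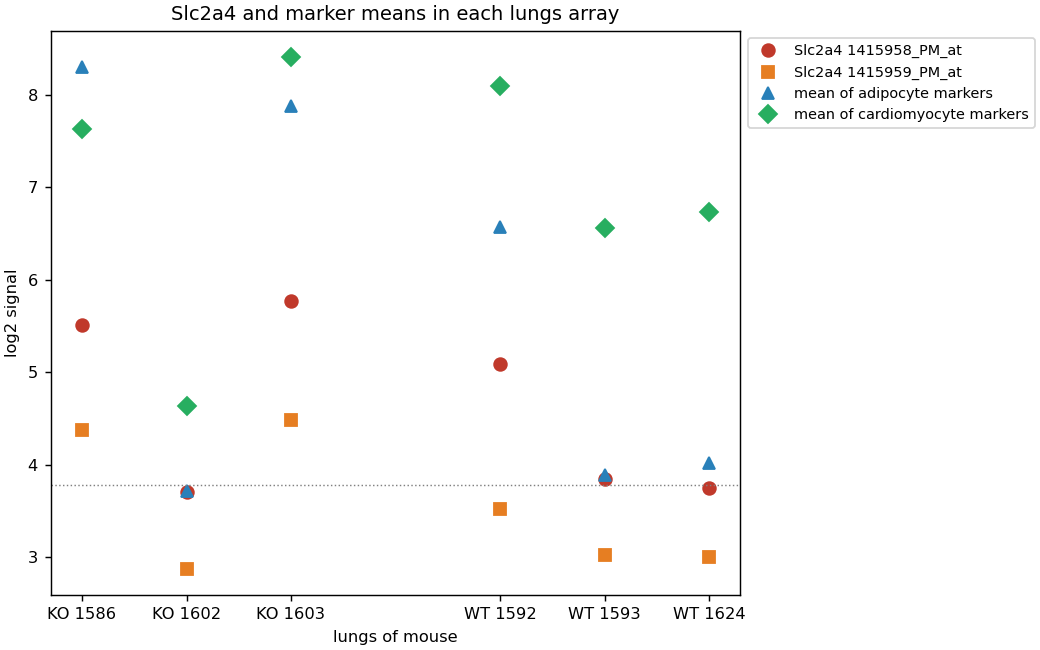
Log2 signal in each of the 6 lungs (horizontal axis, KO left, WT right) of the 2 Slc2a4 probe sets and the means of adipocyte and cardiomyocyte markers, with a dotted line at 3.79. All 4 series are highest in KO 1586, KO 1603 and WT 1592, where the adipocyte mean is 8.30, 7.88 and 6.57.

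In fibroblasts, Slc2a1 probe set 1426599_PM_a_at differed by 0.32 (SE 0.23, 95% interval -0.17 to 0.82), both KO samples lying above both WT samples. Its second probe set differed by 0.0016 (95% interval -0.80 to 0.80) with the groups overlapping, so the 2 probe sets do not show the same. Slc2a3 differed by 0.41 (SE 0.46) near the filter value. Rala probe set 1450870_PM_at had a lower mean in KO than in WT in every tissue, by -0.46 in lungs, -0.40 in heart and -0.23 in fibroblasts, and on the mean of lungs and heart by mouse by -0.43 (SE 0.16, 95% interval -0.79 to -0.06, adjusted p of limma 0.339). In KO lungs it had 7.30, 6.57 and 5.67, and in WT lungs 6.80, 6.96 and 7.15. In KO heart it had 5.78, 6.47 and 6.42, and in WT heart 6.60, 6.52 and 6.75. The brighter Rala probe set, 1423137_PM_at, gave -0.13, 0.09 and -0.01 in the same 3 tissues.

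The wider pathway was described with 7 lists of genes. No gene of any list passed limma between KO and WT in lungs, heart or fibroblasts. List medians of KO minus WT stand beside medians of -0.06 in lungs, -0.16 in heart and 0.02 in fibroblasts over all kept probe sets. Of 24 measured genes of GLUT4 vesicle trafficking and fusion, which include Myo1c, 22 were kept in lungs and in heart, with medians of -0.17 in both. In heart the largest differences were -1.19 for the endocytic receptor Lrp1 (adjusted p of limma 0.0728), -0.90 for sortilin (Sort1) and -0.84 for Myo1c. All 9 exocyst subunits were kept, with medians of -0.09 in lungs, -0.12 in heart and 0.04 in fibroblasts, and Exoc8 at -0.69 in heart as the largest. Of 29 measured insulin signalling genes, the median was -0.09, -0.12 and 0.05 over those kept in lungs, heart and fibroblasts, with Pde3b, the phosphodiesterase that AKT acts on, at -0.94 in heart and Grb10, an adaptor that dampens insulin receptor signalling, at -0.66 in fibroblasts.

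The remaining lists also held no call between KO and WT. Transcription factors known to act on Slc2a4 had medians of -0.10 in lungs, -0.19 in heart and -0.08 in fibroblasts. The adipogenic factors Pparg and Cebpa gave -1.13 and -0.92 in fibroblasts, with adjusted p of limma near 1. Genes of glucose phosphorylation and glycogen had medians of 0.03, 0.03 and 0.00, with the liver glycogen phosphorylase Pygl at 0.67 in lungs. Hypoxia-responsive genes had medians of 0.04, 0.02 and 0.07, and the other hexose transporters, of which 8 were measured and 3, 1 and 2 kept, had medians of -0.18, -0.26 and 0.45.

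Between WT tissues these lists differed widely, as the whole array did. A list counts 1 probe set per gene, its brightest, while the shares of all count every kept probe set, so the units differ. With 1 mean value per gene, 7028 of 10886 kept genes passed between WT lungs and WT heart. Between WT lungs and WT fibroblasts it was 6867 of 11096, and between WT heart and WT fibroblasts 7247 of 10713. The muscle glycogen phosphorylase Pygm differed by -5.77 between WT lungs and WT heart and by 7.22 between WT heart and WT fibroblasts on the log2 scale. Hexokinase 2 (Hk2), which traps glucose inside the cell and is typical of insulin-sensitive muscle, differed by -3.54 and 2.44 in the same comparisons. All 9 kept genes of phosphorylation and glycogen passed between WT lungs and WT heart, 1 higher and 8 lower in lungs, where 60.2% of all kept probe sets passed, with a median of -1.66 beside 0.18 over all kept probe sets. Between WT heart and WT fibroblasts 8 of 9 passed, against 63.8% of all, 7 higher and 1 lower in heart, with a median of 1.10 beside -0.16 over all.

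Among regulators, Mef2c, a muscle transcription factor that acts on the Slc2a4 promoter, was higher in WT heart than in WT fibroblasts (3.99) and lower in WT lungs than in WT heart (-1.97). Klf15, another activator of Slc2a4, was 2.99 higher in heart and 3.12 higher in lungs than in fibroblasts. Cebpa was 4.02 higher in WT lungs than in WT heart. Of 10 kept factors, 7 passed between WT lungs and WT heart (60.2% of all kept probe sets did), 3 higher and 4 lower in lungs. Between WT heart and WT fibroblasts 6 passed (63.8% of all), each higher in heart, and between WT lungs and WT fibroblasts 8 passed (60.1% of all), each higher in lungs. The first 2 counts lie near the share of the whole array.

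In insulin signalling, 17 of 27 kept genes passed between WT lungs and WT heart, 7 higher and 10 lower in lungs, a share near the 60.2% of all kept probe sets. The AMPK subunit Prkaa2 was higher in WT heart than in WT fibroblasts (5.84) and lower in WT lungs than in WT heart (-2.69). The insulin receptor (Insr) was higher (2.38) and the IGF1 receptor (Igf1r) lower (-2.04) in WT heart than in WT fibroblasts. The atypical protein kinase C gene Prkcz was 3.30 higher in WT lungs than in WT heart and 3.80 higher than in WT fibroblasts. Between WT lungs and WT fibroblasts 16 of 27 passed, 8 in each direction, against 60.1% of all, and between WT heart and WT fibroblasts 19 of 27, 9 higher and 10 lower in heart, against 63.8% of all.

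In vesicle trafficking, 18 of 22 kept genes passed between WT lungs and WT heart, against 60.2% of all kept probe sets. Of these, 11 were higher and 7 lower in lungs, led by the sorting receptor Sorl1 (3.07), the vesicle SNARE Vamp8 (2.02) and Sort1 (1.85). Against WT fibroblasts, 16 of 22 passed both for lungs (9 higher, 7 lower, against 60.1% of all) and for heart (7 higher, 9 lower, against 63.8% of all). Ralgapa2, a subunit of the complex that switches RALA off, was 4.11 higher in WT heart than in WT fibroblasts and 3.49 higher in WT lungs. Of the 9 exocyst subunits, 7 passed between WT lungs and WT heart (3 higher, 4 lower in lungs), 2 between WT lungs and WT fibroblasts and 6 between WT heart and WT fibroblasts (2 higher, 4 lower in heart), beside the same 60.2%, 60.1% and 63.8% of all. Exoc6 was 4.50 higher in WT heart and 3.26 higher in WT lungs than in WT fibroblasts, while Exoc4 was lower in both (-1.31 and -1.94).

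Of 13 kept hypoxia-responsive genes, 12 passed between WT lungs and WT fibroblasts, against 60.1% of all kept probe sets. Of these, 2 were higher and 10 lower in lungs, with the peptide hormone gene Adm at -6.07 and the glycolytic gene Pgk1 at -2.57. Between WT heart and WT fibroblasts 9 of 13 passed, against 63.8% of all, 3 higher and 6 lower in heart. Between WT lungs and WT heart 9 passed, against 60.2% of all, 2 higher and 7 lower in lungs, with the prolyl hydroxylase Egln3 at -4.21. Of the other hexose transporters, Slc2a10 was lower in WT lungs (-1.54) and in WT heart (-2.15) than in WT fibroblasts, and the sodium-coupled transporter Slc5a1 was 1.17 higher in WT lungs than in WT heart. All 3 kept genes of that list passed against fibroblasts in lungs and in heart.

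The genes whose pattern lay closest to each member were found over the 16 arrays by the mean absolute difference of log2 signals after each gene was centred on its own mean, among 11846 genes. This is a description, in which tissue differences weigh most. Closest to Slc2a4 were Corin (0.297), which encodes the heart protease that activates natriuretic peptide, Tmem182 (0.307) and Coq8a (0.319). Closest to Tbc1d4 were Ndufa5 (0.175), Lpin1 (0.182) and Pdhb (0.183), of which Ndufa5 and Pdhb encode subunits of mitochondrial complex I and of pyruvate dehydrogenase. Closest to Slc2a1 were Stil (0.146), Ydjc (0.190) and Aldh18a1 (0.195), and to Slc2a3 Abca7 (0.295), Vsig10 (0.308) and Cd3d (0.310), the last a T cell receptor subunit. Group means of Stil, Ydjc and Aldh18a1 in lungs and heart lay between 2.65 and 3.63, under 3.79. Those of Cd3d in heart and fibroblasts lay under 3.79 as well. Slc2a12 lay closest to Rfk (0.253), Mgat4a and Psmb10, and Slc2a8 to Clasp2 (0.104), Galnt1 and Rab11b. Rala, by its brighter probe set 1423137_PM_at, lay closest to Bnip2 (0.0886), Gsk3b and Sar1a, and Aspscr1 to Sart1 (0.0957), Idnk and Tbc1d9b.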

How the data were processed

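Transcript levels were measured on 16 Affymetrix mouse arrays from total RNA extracted with Trizol, 6 ug per array, per the labels' protocols. The values deposited by the authors are signals on a log2 scale, as their range shows. The submitters' processing notes name Partek 6.4. How background and differences between arrays were corrected is not stated there. Without total counts or detection calls, precision rests on the number of arrays. Any 2 arrays differed by 0.190 or more on average, so none is a copy of another.

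Of 45141 entries, 104 controls were set aside. Of the 45037 probe sets, 28898 carry exactly 1 gene, 551 several and 15588 none, and gene numbers gave 28689 of them a current symbol. The values were used as deposited in limma 3.58.1 (R 4.3.3), in 1 model with 6 group means over 16 arrays (10 residual and 3.53 prior degrees of freedom), or 2 groups of mice for the mean of lungs and heart (4 and 3.42). Kept probe sets had a mean above 3.79 over the arrays of a compared tissue. P-values are two-sided and adjusted by Benjamini-Hochberg over all kept probe sets of the comparison. The script was tested on simulated data.

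Named were all probe sets of the members and of Myo1c. A list's gene is its probe set with the highest mean, and genes of a list were named by the size of their difference, at most 6 called or 3 uncalled per comparison. The 3 nearest genes of each member were named too. The members, lists and tests were chosen with earlier results of these data known. Besides the 7 pathway lists, 14 lists of cell type markers were measured.

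Each mouse number was read as 1 animal, so lungs and heart are paired by mouse from the titles, and deviations of the 2 organs of 1 mouse correlated at 0.0597 to 0.128. Lungs and heart of different mice of 1 genotype gave -0.077 to -0.014. Deviations within a group cancel out, so these 2 ranges are not independent. KO and WT share no number. Alternatives were no filter and a stricter one, quantile normalization, centring on array medians, a trended and robust spread, array weights, the mouse as a block, arrays of 1 tissue alone, marker means as terms and leaving out each array. Promoter windows came from RefSeq GRCm38.p6. Lnpep was not analysed on the array, and the array names no assembly, so no probe set position is given.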

Additional observations from a re-analysis of the deposited data

How the results depend on the processing

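No alternative brought a member past the threshold between KO and WT: a member was called in 0 of 108 combinations of a comparison and an alternative, over 7 comparisons. Slc2a4 probe set 1415959_PM_at was too low in lungs to be kept in all but the setting without a filter, so these combinations do not count it in lungs elsewhere. With 1 value per gene, the mean of its probe sets, 0 members were called between KO and WT and 4, 4 and 5 between WT lungs and heart, lungs and fibroblasts, and heart and fibroblasts, against 4, 4 and 6 for the values in the report. Between WT tissues 5 to 6, 5 to 6 and 7 to 9 member probe sets were called when each array was left out in turn. With the mouse as a replicate block, pairing lungs and heart, 0 members were called between KO and WT and 6, 6 and 8 between the WT tissues, and no member's call changed. Among 635 recomputed values of single genes, 561 kept direction and side of the threshold, 50 changed sign, 15 lost and 9 gained a call.

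The changes of sign are all of differences that had not passed, and the cause was not tested. With the adipocyte mean as a term, KO minus WT in lungs was -0.043 for Slc2a4, 0.042 for Rala, -0.13 for Slc2a1 and -0.25 for Slc2a3. Without the 3 lungs with adipocyte transcripts, which are also the 3 highest for Slc2a4 and leave 1 KO lung, so that a small Slc2a4 difference follows from the choice, it was -0.087 for Slc2a4, 0.0024 for Rala, 0.080 for Aspscr1, 0.0026 for Slc2a12 and -0.43 for Slc2a3. With array weights it was 0.0043 for Slc2a12 and 0.048 for Tbc1d4. In heart, quantile normalization gave 0.089 for Aspscr1, 0.088 for Slc2a1, 0.20 for Slc2a12 and 0.11 for Slc2a8. The atrial mean as a term gave 0.10 for Aspscr1, and leaving out the 2 KO hearts low in atrial transcripts gave 0.16 for Aspscr1 and 0.032 for Slc2a8. In fibroblasts, quantile normalization gave -0.0013 for Aspscr1. Between WT tissues, centring gave -0.058 for Rala and -0.039 for Aspscr1 (lungs minus heart) and -0.15 for Aspscr1 (lungs minus fibroblasts), and quantile normalization gave -0.077 (lungs minus heart) and 0.12 (heart minus fibroblasts) for Aspscr1.

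With each array left out in turn, KO minus WT in lungs ranged over -0.24 to 0.029 for Rala, -0.20 to 0.020 for Aspscr1, -0.15 to 0.33 for Slc2a1, -0.16 to 0.40 for Slc2a3, -0.17 to 0.023 for Slc2a8 and -0.25 to 0.11 for Tbc1d4. In heart it ranged over -0.33 to 0.039 for Aspscr1, -0.19 to 0.15 for Slc2a12, -0.22 to 0.0081 for Slc2a8 and -0.036 to 0.20 for Tbc1d4. In fibroblasts it ranged over -0.095 to 0.069 for Rala, -0.37 to 0.12 for Slc2a12, -0.034 to 0.86 for Slc2a3 and -0.014 to 0.25 for Slc2a8. Lungs minus heart in WT ranged over -0.037 to 0.16 for Rala, -0.023 to 0.20 for Aspscr1 and -0.44 to 0.046 for Slc2a1. Aspscr1 ranged over -0.041 to 0.17 for lungs minus fibroblasts and -0.11 to 0.070 for heart minus fibroblasts.

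Calls between WT tissues also moved with the settings. Tbc1d4 between lungs and fibroblasts lost its call under quantile normalization (0.44) and centring (0.47) and was not kept by the stricter filter. Slc2a3 between lungs and heart lost it under quantile normalization (0.84), and Rala between heart and fibroblasts without a filter (adjusted p of limma 0.0561). Between lungs and fibroblasts Rala gained one with centring (-0.57), a trended spread and array weights, and without WT lungs 1593 (-0.47). Array weights gave a call for Slc2a8 between lungs and fibroblasts (0.37) and Slc2a3 between heart and fibroblasts (0.92).

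Over all kept probe sets the calls between KO and WT, 7 in lungs, 28 in heart and 12 in fibroblasts, became 129, 24 and 40 with array weights, and 1, 2 and 0 in fits on 1 tissue alone. Each array left out in turn gave 0 to 62 in lungs (62 without KO 1602), 3 to 1054 in heart (1054 without KO 1603) and 12 to 92 in fibroblasts (92 without WT 1571). With 2 or 3 arrays per group, changes within the members' intervals may have gone undetected.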
